A study of Trametes coccinea with 18 samples.

Results

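The 4 genes described here are PYCCODRAFT_1468611, PYCCODRAFT_1436321, PYCCODRAFT_1431101 and PYCCODRAFT_1464049 of *Pycnoporus coccineus* CIRM-BRFM 310 (Pycco 310, *Trametes coccinea* in the sample records), a white-rot fungus. They are named by the locus tags of the public Pycco1 annotation, whose digits are the protein IDs of the count tables and of the plots. They were taken by these IDs, as the genes of CAZy family AA2 that the study placed in its gene clusters highly transcribed on plant substrates, and they are 4 of 12690 gene models counted. RNA of this single strain was sequenced on day 3 from cultures on 6 carbon sources, with 3 libraries each from independent cultures, 18 libraries in all. The sources were maltose, Avicel (a microcrystalline cellulose), ground aspen, pine, wheat straw, and a mixture of xylan and galactomannan. By the sample labels the maltose medium held 20 g/l of maltose. Each of the other media held 15 g/l of its substrate and also 2.5 g/l of maltose, although the methods speak of sole carbon sources. All media shared a mineral base with diammonium tartrate as nitrogen source, manganese and copper salts, thiamin and some yeast extract.

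Family AA2 comprises the secreted class II heme peroxidases of fungi, among them the lignin, manganese and versatile peroxidases. They take electrons from lignin or from manganese ions and use hydrogen peroxide as the oxidant, so they depend on oxidases that produce the peroxide, such as the AA3 flavoenzymes and the AA5_1 copper radical oxidases. White-rot fungi are known for removing lignin from wood with such enzymes, and several copies of the family are usually found in one genome. The files do not state which kind of AA2 peroxidase each of the 4 genes encodes. In the gene list of the study each carries a predicted signal peptide.

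Library totals lay between 26370228 and 42190522 counts, and 12690 gene models were counted. All 18 libraries were nearer to the other libraries of their own carbon source than to any other source, by the root mean square difference of log2 levels. One label conflict touches the results: xylan-galactomannan replicate 3 is named for that medium by its title and its agent, but its description names wheat straw. That library lay 0.68 log2 from the other xylan-galactomannan libraries and 0.82 log2 from wheat straw, against 0.42 and 1.12 for replicate 1 and 0.65 and 1.27 for replicate 2. The tests of the AA2 genes on this medium, their summed levels and the counts of other genes called against maltose are therefore given with and without the third library, while single levels, ranks and profile distances include it. A normalized count is the count divided by the size factor of its library, and a log2 level is the log2 of the normalized count with 1 added. In whole cultures a higher normalized count cannot be assigned to more transcript per hypha or to more of the hyphae that transcribe the gene.

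The 4 genes formed 2 pairs by their profiles. The study's clustering of the same data had already placed the genes of each pair together in a cluster. Genes PYCCODRAFT_1468611 and PYCCODRAFT_1436321 had normalized counts of 31.1 to 141 on maltose and Avicel and of 2993 to 87847 on the other 4 sources. Genes PYCCODRAFT_1431101 and PYCCODRAFT_1464049 were highest on aspen by far and at an intermediate or low level on pine, wheat straw and xylan-galactomannan.

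Gene PYCCODRAFT_1468611 had 31.1, 56.3 and 65.3 normalized counts in the maltose libraries and 71.6, 36.0 and 77.3 in the Avicel libraries. On aspen it had 53827, 87847 and 47547, and in the pine libraries 13707, 36119 and 70705. On wheat straw it had 24352, 18013 and 24328, and on xylan-galactomannan 18359, 23245 and 19831. The 6 libraries of the simple sources lay far below the other 12, with no overlap. The aspen libraries lay above all wheat straw and xylan-galactomannan libraries, and the pine libraries ranged from below every other complex medium to above 2 of the 3 aspen libraries. By mean log2 level its order was aspen (15.89 ± 0.47, SD, n = 3), pine (15.00 ± 1.19), wheat straw (14.43 ± 0.25), xylan-galactomannan (14.31 ± 0.17), Avicel (5.89 ± 0.60) and maltose (5.63 ± 0.55). Between neighbours in this order the limits of the test were passed only from xylan-galactomannan to Avicel.

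Gene PYCCODRAFT_1436321 had 68.9, 63.6 and 141 normalized counts on maltose and 134, 82.6 and 112 on Avicel. On aspen it had 8928, 16999 and 8634, on pine 2993, 15421 and 23732, and on wheat straw 25025, 10687 and 16043. On xylan-galactomannan it had 4001, 7628 and 5339.8. Maltose and Avicel overlapped and stood apart from all other libraries, and among the complex media the xylan-galactomannan libraries lay below every aspen and wheat straw library but not below pine replicate 1. The mean log2 level was highest on wheat straw (13.99 ± 0.61, SD, n = 3), followed by aspen (13.42 ± 0.55), pine (13.33 ± 1.58), xylan-galactomannan (12.42 ± 0.47), Avicel (6.76 ± 0.35) and maltose (6.43 ± 0.62). Wheat straw, aspen and pine did not differ by the test, and the steps from pine to xylan-galactomannan and from there to Avicel passed it.

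Gene PYCCODRAFT_1431101 had 33.4, 33.4 and 35.6 normalized counts on maltose and 25.7, 32.7 and 46.4 on Avicel, and reached 64254, 97521 and 48061 on aspen. On pine it had 286, 448 and 785, on wheat straw 1126, 455 and 689, and on xylan-galactomannan 821, 1040.0 and 1281. The libraries fell into separate ranges, with the simple sources lowest, the aspen libraries highest, and the remaining 9 libraries between them. The mean log2 level was 16.03 ± 0.51 on aspen (SD, n = 3), 10.01 ± 0.32 on xylan-galactomannan, 9.47 ± 0.65 on wheat straw, 8.86 ± 0.73 on pine, and 5.13 on both maltose (SD 0.05) and Avicel (SD 0.41). In this order the steps from aspen to xylan-galactomannan and from pine to maltose passed the test.

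Gene PYCCODRAFT_1464049 had 68.9, 76.1 and 158 normalized counts on maltose and 51.5, 47.4 and 42.5 on Avicel. On aspen it had 14264, 13654 and 16764, the tightest of the aspen groups, and on pine 99.9, 97.4 and 178. On wheat straw it had 1231, 1817 and 1948, and on xylan-galactomannan 661, 2045 and 733. Pine overlapped with maltose, wheat straw overlapped with xylan-galactomannan, and the Avicel libraries were the lowest of all without overlapping any other source. The mean log2 level ran from 13.86 ± 0.16 on aspen (SD, n = 3) over 10.67 ± 0.36 on wheat straw, 9.96 ± 0.90 on xylan-galactomannan, 6.92 ± 0.49 on pine and 6.57 ± 0.65 on maltose to 5.58 ± 0.14 on Avicel. The steps from aspen to wheat straw, from xylan-galactomannan to pine and from maltose to Avicel passed the test, and the others did not.

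**Figure D1:**
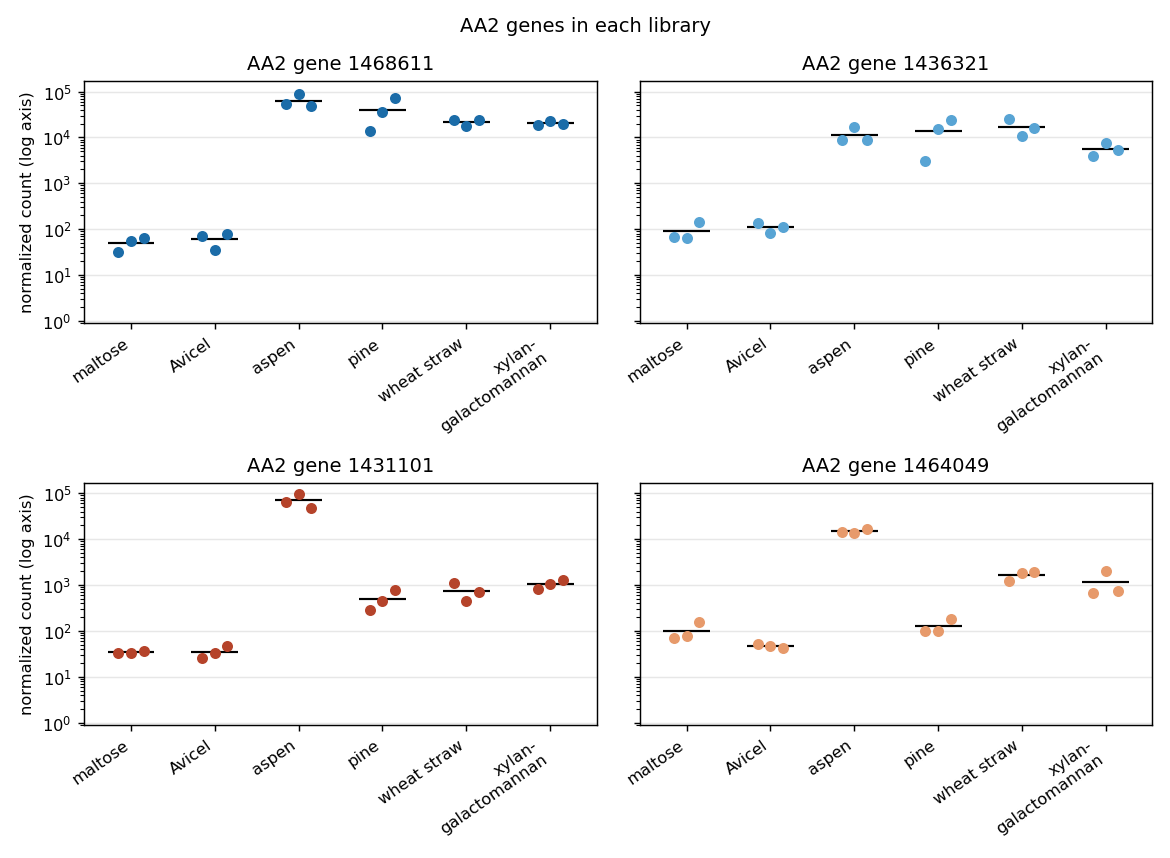
Normalized counts of the 4 AA2 genes on a log axis, one point per library and one panel per gene, with the mean of the 3 libraries of each carbon source as a bar. Genes PYCCODRAFT_1468611 and PYCCODRAFT_1436321 are high on aspen, pine, wheat straw and xylan-galactomannan, whereas PYCCODRAFT_1431101 and PYCCODRAFT_1464049 are highest on aspen, and PYCCODRAFT_1464049 on pine (97.4 to 178) overlaps with maltose (68.9 to 158).

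Each comparison was tested on the raw counts with edgeR's quasi-likelihood test and Benjamini-Hochberg adjustment over all gene models tested. Genes were called higher or lower where the adjusted p was below 0.05 and the log2 fold change beyond 1 or -1, and the error given with a fold change is its standard error. The study had selected these genes on the same libraries for high levels on plant substrates, low levels on maltose and Avicel, and up-regulation in comparison to maltose. Their rises on aspen, pine and wheat straw are thus no independent evidence of that direction, nor are their low levels on Avicel. Comparisons with maltose share its 3 libraries, as those with Avicel share theirs. The clusters had been selected for each plant substrate by their level on it. Differences between aspen, pine and wheat straw, and their ranks, are therefore not independent of that selection either. The xylan-galactomannan cultures had no part in it, but the sources they were compared with did.

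On Avicel, in which cellulose accompanied a smaller amount of maltose, none of the 4 genes was called higher. In Avicel against maltose 0 of 4 genes were called higher, where 14.1% of all gene models tested were, and 1 was called lower, where 15.2% were. The one that fell was PYCCODRAFT_1464049, with a log2 fold change of -1.07 ± 0.32 and an adjusted p of 0.0107, and the call was lost without maltose replicate 3, at -0.59 with an adjusted p of 0.102. The log2 fold changes of PYCCODRAFT_1468611 (0.30 ± 0.50), PYCCODRAFT_1436321 (0.29 ± 0.57) and PYCCODRAFT_1431101 (0.06 ± 0.44) had unadjusted p-values of 0.561, 0.617 and 0.902.

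On the plant substrates against maltose, 4 of 4 genes were called higher on aspen (19.5% of all gene models), 3 of 4 on pine (22.1%) and 4 of 4 on wheat straw (17.3%). The median log2 fold change of the 4 genes was 6.04 on wheat straw, 5.58 on pine and 8.73 on aspen, where the median over all gene models lay at 0.02, 0.00 and -0.02. Among 11112 gene models ordered by fold change on aspen, PYCCODRAFT_1431101 stood at place 3 and PYCCODRAFT_1468611 at place 4. On pine and wheat straw PYCCODRAFT_1468611 stood at places 5 and 7 and PYCCODRAFT_1436321 at place 16 in both.

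With Avicel as the reference, 4 of 4 genes were called higher on aspen (15% of all gene models). The same count held for pine (23%) and for wheat straw (13.3%). The largest difference was that of PYCCODRAFT_1431101 on aspen, 10.94 ± 0.57 log2 (adjusted p = 3.39e-09), or 1967-fold, which was place 1 of 11112 gene models. Gene PYCCODRAFT_1464049 was higher on aspen than on Avicel by 8.27 ± 0.39 log2 (adjusted p = 2.28e-09), place 4, and on wheat straw by 5.13 ± 0.34 (adjusted p = 3.72e-08). On pine it was higher than on Avicel by 1.37 ± 0.32 (adjusted p = 0.00147), whereas against maltose its value was 0.30 ± 0.31 (adjusted p = 0.423). Gene PYCCODRAFT_1468611 exceeded its Avicel level on wheat straw by 8.49 ± 0.62, on pine by 9.32 ± 0.64 and on aspen by 9.97 ± 0.66, and PYCCODRAFT_1436321 by 7.30 ± 0.70, 6.98 ± 0.69 and 6.69 ± 0.68 in this order, with adjusted p-values of 1.98e-06 or less.

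The xylan-galactomannan medium, which held a mixture of hemicelluloses in place of whole plant material, also gave levels above those on maltose and Avicel. Against maltose 4 of 4 genes were called higher (19.4% of all gene models), and against Avicel 4 of 4 (16.3%). In comparison to maltose, PYCCODRAFT_1468611 rose by 8.67 ± 0.59 log2 (adjusted p = 2.06e-09), which was place 2 of 11168 gene models. Gene PYCCODRAFT_1436321 rose by 5.98 ± 0.64 (adjusted p = 3.76e-07), PYCCODRAFT_1431101 by 4.97 ± 0.44 (adjusted p = 3.75e-08) and PYCCODRAFT_1464049 by 3.51 ± 0.41 (adjusted p = 1.15e-06). In comparison to Avicel the rises were 8.35 ± 0.58, 5.67 ± 0.63, 4.89 ± 0.44 and 4.56 ± 0.44 in the same order. No call against maltose or Avicel was lost without xylan-galactomannan replicate 3.

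Against aspen, 3 of 4 genes were called lower on xylan-galactomannan (13.3% of all gene models). Gene PYCCODRAFT_1431101 was lower by a log2 fold change of -6.03 ± 0.45 (adjusted p = 7.65e-08) and PYCCODRAFT_1464049 by -3.69 ± 0.41 (adjusted p = 4.48e-06), while PYCCODRAFT_1468611 differed by -1.60 ± 0.43 (adjusted p = 0.00615). Gene PYCCODRAFT_1436321 was at -1.005 ± 0.51 with an adjusted p of 0.125, although its libraries did not overlap, and without pine replicate 1 in the shared fit it was called at -1.004 with an adjusted p of 0.0365. Without xylan-galactomannan replicate 3 the 3 calls held, and PYCCODRAFT_1436321 was at -0.99 (adjusted p = 0.192).

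Against pine, 2 of 4 genes were called higher on xylan-galactomannan (18.1% of all gene models) and 1 lower (18.5%), and most of these calls rest on single libraries. Gene PYCCODRAFT_1464049 was higher by 3.23 ± 0.41 log2 (adjusted p = 4.15e-06), with no overlap of libraries, and this call held in each fit without one library. Gene PYCCODRAFT_1431101 was higher by 1.10 ± 0.37 (adjusted p = 0.0168) and PYCCODRAFT_1436321 lower by -1.28 ± 0.52 (adjusted p = 0.0441). Without xylan-galactomannan replicate 3 these values were 0.89 (adjusted p = 0.0648) and -1.26 (adjusted p = 0.0865), and only 1 of the 4 genes was called. The call of PYCCODRAFT_1431101 was also lost without pine replicate 1 (0.81) or 2 (1.03). That of PYCCODRAFT_1436321 was also lost without pine replicate 2 (-1.19), pine replicate 3 (-0.69), xylan-galactomannan replicate 1 (-1.07), Avicel replicate 1 or wheat straw replicate 3 (both -1.28). Gene PYCCODRAFT_1468611 differed from pine by -0.93 ± 0.42 (adjusted p = 0.0693), and without pine replicate 1 it was called lower at -1.34 (adjusted p = 0.00423).

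Against wheat straw, 1 of 4 genes was called lower on xylan-galactomannan (12.1% of all gene models). It was PYCCODRAFT_1436321, at -1.62 ± 0.52 log2 (adjusted p = 0.0187), and the call was lost without xylan-galactomannan replicate 1 (-1.42) or wheat straw replicate 1 (-1.26). The differences of PYCCODRAFT_1468611 (-0.13 ± 0.42, adjusted p = 0.823), PYCCODRAFT_1431101 (0.46 ± 0.36, adjusted p = 0.320) and PYCCODRAFT_1464049 (-0.56 ± 0.37, adjusted p = 0.229) were within the limits. Without xylan-galactomannan replicate 3, the library whose description names wheat straw, PYCCODRAFT_1436321 was still called at -1.61 (adjusted p = 0.0410), and the others were at -0.14, 0.26 and -0.34 in the same order. Without xylan-galactomannan replicate 2, in which PYCCODRAFT_1464049 was highest, that gene was called lower at -1.30 (adjusted p = 0.00664).

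**Figure D2:**
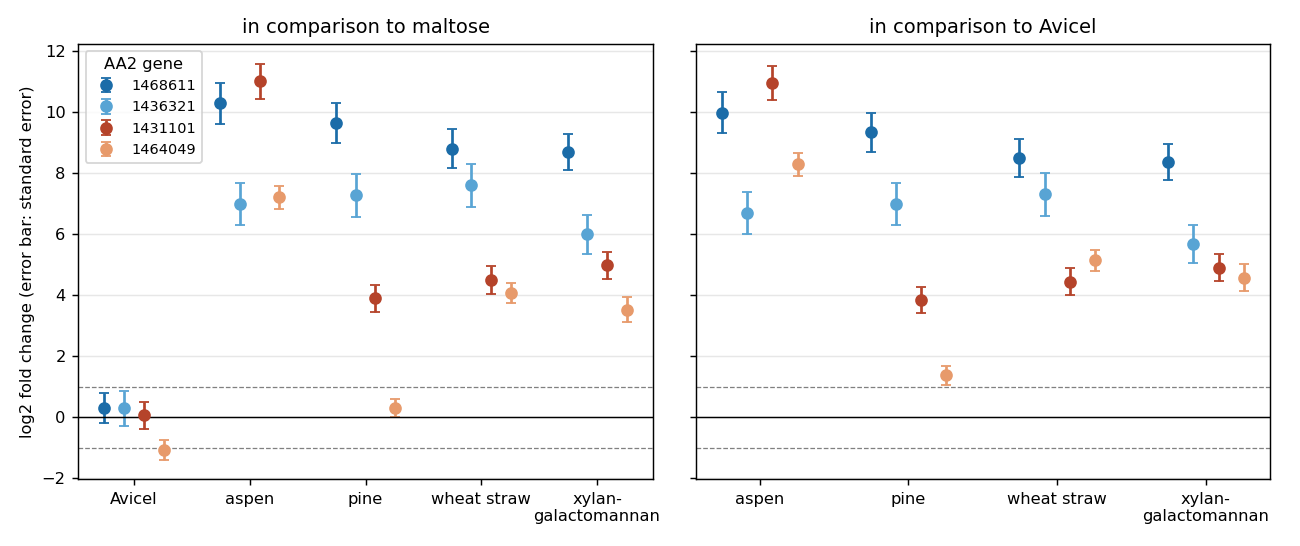
Log2 fold changes of the 4 AA2 genes to maltose (left) and to Avicel (right), with standard errors from edgeR as bars and the limits of 1 and -1 as dashed lines. On xylan-galactomannan the values to maltose run from 3.51 for PYCCODRAFT_1464049 to 8.67 for PYCCODRAFT_1468611, and on Avicel they lie between -1.07 and 0.30.

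The pairs of genes differed between the plant substrates, whose levels the study's selection had used. Between the woods, 2 of 4 genes were called higher on aspen than on pine (7.6% of all gene models) and the other two were not called. Gene PYCCODRAFT_1431101 was higher on aspen by 7.11 ± 0.48 log2 (adjusted p = 1.34e-07), or 138-fold, place 1 among 11112 gene models, and PYCCODRAFT_1464049 by 6.90 ± 0.37 (adjusted p = 1.39e-08), or 120-fold, place 3. Gene PYCCODRAFT_1468611 differed by 0.65 ± 0.45 (adjusted p = 0.277) and PYCCODRAFT_1436321 by -0.29 ± 0.53 (adjusted p = 0.703). These values depended on the pine libraries. Without pine replicate 3, PYCCODRAFT_1468611 was called higher on aspen at 1.35 (adjusted p = 0.0341), and PYCCODRAFT_1436321 changed sign to 0.33 (adjusted p = 0.684).

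Against wheat straw, 3 of 4 genes were called higher on aspen (6.51% of all gene models). The differences were 6.51 ± 0.47 log2 for PYCCODRAFT_1431101 (adjusted p = 2.87e-07) and 3.14 ± 0.30 for PYCCODRAFT_1464049 (adjusted p = 4.94e-06). That of PYCCODRAFT_1468611, 1.48 ± 0.45 (adjusted p = 0.0311), was no longer called without aspen replicate 1 (1.58) or 2 (1.16) or without wheat straw replicate 1 (1.55), 2 (1.35) or 3 (1.55). Gene PYCCODRAFT_1436321 differed by -0.61 ± 0.53 (adjusted p = 0.443), with overlapping libraries.

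Between pine and wheat straw, 1 of 4 genes was called lower on pine (10% of all gene models). It was PYCCODRAFT_1464049, at -3.76 ± 0.32 log2 (adjusted p = 1.66e-06), place 13 from the lowest of 11112 gene models. Gene PYCCODRAFT_1431101 differed by -0.60 ± 0.37 (adjusted p = 0.211) and was called lower without pine replicate 3 (-1.11, adjusted p = 0.0353). Gene PYCCODRAFT_1468611 differed by 0.83 ± 0.45 (adjusted p = 0.149) and was called higher on pine without pine replicate 1 (1.19, adjusted p = 0.0190), and PYCCODRAFT_1436321 differed by -0.32 ± 0.53 (adjusted p = 0.659). Pine was thus the only complex medium on which PYCCODRAFT_1464049 was not called higher than on maltose.

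For 3 of the 4 genes the pine libraries varied most. The SD of the log2 level was 1.19 for PYCCODRAFT_1468611, 1.58 for PYCCODRAFT_1436321 and 0.73 for PYCCODRAFT_1431101 on pine, but that of PYCCODRAFT_1464049, 0.49, was exceeded on xylan-galactomannan (0.90) and maltose (0.65). Pine replicate 1 was the lowest of the 3 for PYCCODRAFT_1468611, PYCCODRAFT_1436321 and PYCCODRAFT_1431101, and pine replicate 3 the highest for all 4 genes. The AA2 genes together held 0.0411% of the counts in pine replicate 1, 0.113% in replicate 2 and 0.212% in replicate 3. Library totals were 38654866, 35009522 and 28399534 in the same order, and the part of depth in this spread was not tested. The AA3_3 gene PYCCODRAFT_1368318, by contrast, had 54049, 52736 and 26142 normalized counts in these libraries, and was lowest in replicate 3.

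Levels of different genes were compared per length, as the deposited RPKM. The 4 genes summed to 3711 ± 1183 RPKM on aspen (SD, n = 3), 1223 ± 272 on wheat straw, 1073 ± 753 on pine and 834 ± 145 on xylan-galactomannan. On maltose and Avicel the sums were 7.21 ± 3.78 and 7.34 ± 1.44 RPKM. In every aspen library the sum (2805 to 5049 RPKM) exceeded that of every other library, and among wheat straw, pine and xylan-galactomannan the sums overlapped. Without its replicate 3 the xylan-galactomannan sum was 823 ± 203 RPKM (n = 2), an alternative chosen after seeing the data.

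The composition of this sum differed between sources. On aspen 1468611's share of the summed RPKM was 42.7 ± 1.5% (SD, n = 3) and 1431101's was 39.8 ± 3.2%, while 1464049's was 10.9 ± 4.0% and 1436321's 6.64 ± 0.73%. On pine PYCCODRAFT_1468611 held 77.3 ± 5.0% and PYCCODRAFT_1436321 21.4 ± 5.6%, and the pair of PYCCODRAFT_1431101 and PYCCODRAFT_1464049 held 0.977% and 0.329%. On wheat straw PYCCODRAFT_1468611 and PYCCODRAFT_1436321 held 57.2 ± 5.8% and 36.7 ± 7.2%, and on xylan-galactomannan 75.3 ± 4.1% and 17.5 ± 2.6%, or 75.2 ± 5.8% and 17.5 ± 3.7% without its replicate 3 (n = 2). By mean RPKM PYCCODRAFT_1468611 thus came first and PYCCODRAFT_1436321 second on pine, wheat straw and xylan-galactomannan. On aspen the means of PYCCODRAFT_1468611 and PYCCODRAFT_1431101 differed by less than the larger SD, and in aspen replicate 1 PYCCODRAFT_1431101 held the larger share, 41.7% against 41.4%.

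Placed among the 11862 gene models with an RPKM value, the mean level of PYCCODRAFT_1468611 on aspen, 1594 ± 562 RPKM (SD, n = 3), ranked 68 from the top, and that of PYCCODRAFT_1431101, 1492 ± 551 RPKM, ranked 74. On the same scale PYCCODRAFT_1468611 ranked 175 on pine (817 ± 573 RPKM), 216 on wheat straw (691 ± 104 RPKM) and 272 on xylan-galactomannan (624 ± 77 RPKM). Gene PYCCODRAFT_1436321 had its best rank, 361, on wheat straw (460 ± 186 RPKM), and PYCCODRAFT_1464049 its best, 475, on aspen (374 ± 38 RPKM). On maltose each of the 4 genes was listed with a mean RPKM between 0.779 and 2.83, at ranks 8738 to 10154.

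**Figure D3:**
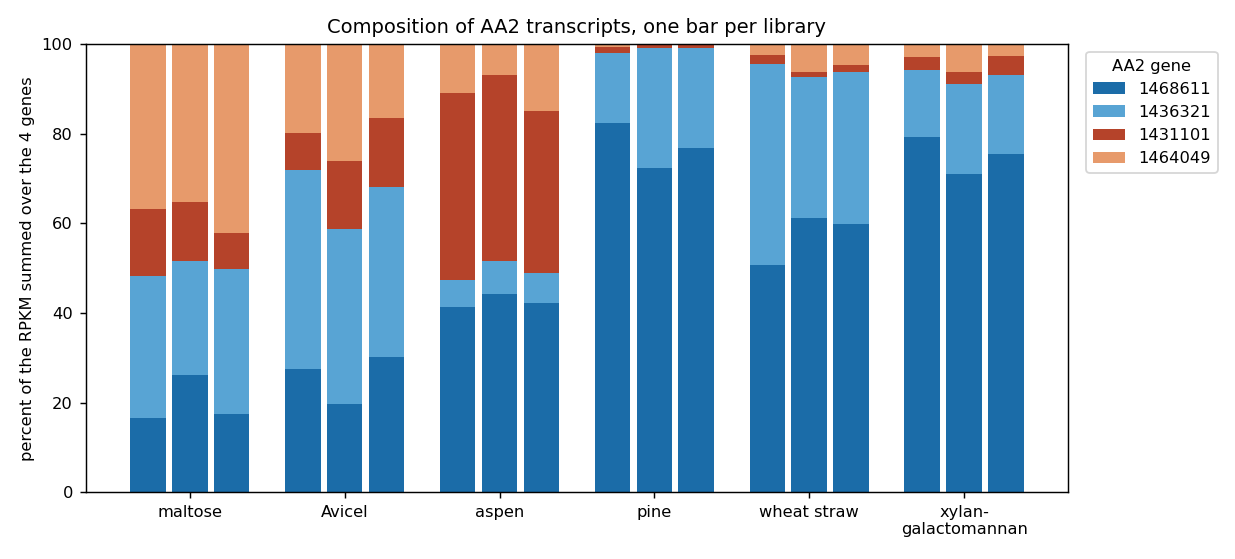
Share of each AA2 gene in the RPKM summed over the 4 genes, in percent, one stacked bar per library and 3 libraries per carbon source. Gene PYCCODRAFT_1431101 makes up 39.8% on aspen and 0.977% on pine on average, and the bars for maltose and Avicel divide sums of only about 7.21 and 7.34 RPKM.

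Among oxidoreductases that can supply hydrogen peroxide or act beside peroxidases, 4 genes named or annotated by the study were followed. Against maltose, 3 of these 4 were called higher on Avicel (14.1% of all gene models) and 4 of 4 on wheat straw (17.3%), aspen (19.5%) and pine (22.1%). On xylan-galactomannan 3 of 4 were called higher (19.4%), with or without its replicate 3. The AA5_1 gene PYCCODRAFT_1480943, a predicted glyoxal oxidase, was the one of them not called on Avicel, where its log2 fold change was 0.47 ± 0.56 (adjusted p = 0.513), and on xylan-galactomannan it rose by 2.23 ± 0.56 (adjusted p = 0.00254). Between the woods, 2 of these 4 oxidoreductases were called higher on aspen than on pine (7.6% of all gene models). Like PYCCODRAFT_1431101 and PYCCODRAFT_1464049, the AA5_1 gene PYCCODRAFT_1480943 was among the genes higher on aspen, by 2.61 ± 0.58 (adjusted p = 0.00360). Its normalized counts on pine were 520.1, 5232 and 4357, with replicate 1 far below the other two, as for PYCCODRAFT_1436321.

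The other 3 genes were called higher on Avicel, unlike the AA2 genes. The AA2 genes came from clusters selected as not high on Avicel. By contrast, PYCCODRAFT_1429888 and PYCCODRAFT_1401955 are listed in clusters that the study chose for many secreted proteins. The contrast on Avicel is thus not independent of these choices. The AA3_2 gene PYCCODRAFT_1429888 rose on Avicel against maltose by 5.39 ± 0.38 log2 (adjusted p = 3.11e-08) and differed little between Avicel and xylan-galactomannan (0.44 ± 0.30, adjusted p = 0.227). The AA3_3 gene PYCCODRAFT_1368318 rose by 5.49 ± 0.59 on Avicel and by 8.21 ± 0.64 on xylan-galactomannan (adjusted p = 8.93e-09). The AA8-AA3_1 gene PYCCODRAFT_1401955, of the domain structure of cellobiose dehydrogenase, which oxidises cellulose fragments, ran the other way to the AA2 genes between these media. It had 70288, 79081 and 85153 normalized counts on Avicel and 147, 141 and 258 on xylan-galactomannan, a log2 fold change of -8.76 ± 0.80 (adjusted p = 1.20e-07), where the AA2 genes rose by 4.56 to 8.35.

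The GH10 xylanase gene PYCCODRAFT_1395316 and the CE1 acetylxylan esterase gene PYCCODRAFT_1377160, which the study placed in the same cluster as PYCCODRAFT_1431101 and PYCCODRAFT_1464049, also peaked on aspen but changed less on xylan-galactomannan. On xylan-galactomannan they rose against maltose by 1.55 ± 0.33 (adjusted p = 6.83e-04) and 2.26 ± 0.38 (adjusted p = 7.75e-05) log2, where PYCCODRAFT_1431101 rose by 4.97 and PYCCODRAFT_1464049 by 3.51. Against aspen they were lower by log2 fold changes of -6.80 ± 0.37 and -5.75 ± 0.42. Differences in fold change between genes were not tested. Of 27 further CAZyme genes from the lists the study selected on plant substrates, which hold PYCCODRAFT_1368318, PYCCODRAFT_1480943, PYCCODRAFT_1395316 and PYCCODRAFT_1377160 again, 14 were called higher on Avicel against maltose (14.1% of all gene models). On xylan-galactomannan 21 were (19.4%), with or without its replicate 3, on wheat straw 22 (17.3%), and on each of the woods 25 (22.1% for pine, 19.5% for aspen). The study had chosen these lists on the same libraries. Between aspen and pine 4 of the 27 were called higher on aspen (7.6%) and 8 on pine (9.39%), with a median of -0.65 log2, where the median of the AA2 genes was 3.77.

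The gene models with the most similar profiles were found by the Euclidean distance between mean log2 levels over the 6 carbon sources, each profile centred on its own mean, among 11168 gene models. For PYCCODRAFT_1468611 the nearest was PYCCODRAFT_701883, at 3.08 log2, and the second was PYCCODRAFT_1436321 at 3.20, whereas the median over all gene models was 10.7. The next were PYCCODRAFT_1430411, PYCCODRAFT_1425076 and PYCCODRAFT_1437846. For PYCCODRAFT_1436321 the nearest was PYCCODRAFT_1430411 at a distance of 1.28 log2, followed by PYCCODRAFT_1425076, the GH28 gene PYCCODRAFT_688728 (a family of pectin-cleaving enzymes), PYCCODRAFT_1448429 and PYCCODRAFT_1375860, and PYCCODRAFT_1468611 stood at place 22.

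For PYCCODRAFT_1431101 the nearest was PYCCODRAFT_1435541 at a distance of 3.16 log2, followed by PYCCODRAFT_1464049 at 3.47, PYCCODRAFT_1395316 at 3.53, PYCCODRAFT_1377160 at 3.54 and PYCCODRAFT_1442642 at 4.01. For PYCCODRAFT_1464049 it was PYCCODRAFT_1433039 at 2.10, followed by PYCCODRAFT_1435541, PYCCODRAFT_1390470, PYCCODRAFT_1440305 and PYCCODRAFT_1442642, and PYCCODRAFT_1431101 stood at place 12. Of the oxidoreductases, the AA5_1 gene PYCCODRAFT_1480943 stood at place 10 for PYCCODRAFT_1464049 (distance 3.35 log2) and at place 11 for PYCCODRAFT_1431101 (4.56). It stood at place 68 for PYCCODRAFT_1468611 (6.64) and at place 69 for PYCCODRAFT_1436321 (4.23). By distance it was thus nearer to PYCCODRAFT_1436321 than to PYCCODRAFT_1431101, and places for different genes are not on one scale. The AA3_3 gene PYCCODRAFT_1368318 was nearer to PYCCODRAFT_1468611 and PYCCODRAFT_1436321, at places 20 and 51 (5.38 and 3.90 log2). For PYCCODRAFT_1431101 and PYCCODRAFT_1464049 it stood at places 82 and 1324 (6.24 and 6.37 log2). The cellobiose dehydrogenase gene PYCCODRAFT_1401955 stood at place 10930 or farther for each of the 4. These distances describe 6 points per gene, each the mean of 3 libraries, and carry no test.

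In the public annotation of the Pycco1 assembly, whose scaffolds are not named, genes PYCCODRAFT_1464049 and PYCCODRAFT_1431101 are direct neighbours, with 1501 bases and no gene between them. Genes PYCCODRAFT_1436321 and PYCCODRAFT_1468611 follow each other with 44 loci and 104042 bases between them. Distances between genes of different pairs were not computed, so whether the profile pairs also separate by position was not tested. The 12 flanking gene models, up to 2 on either side of each AA2 gene, were chosen by position after the values were seen. Against maltose 0 of the 12 were called higher on aspen, pine or wheat straw, where 19.5, 22.1 and 17.3% of all gene models were. On these sources 1, 3 and 1 were called lower, where 14.8, 18.1 and 12.9% of all gene models were. On Avicel 2 of the 12 were called higher (14.1%) and 0 lower (15.2%).

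On xylan-galactomannan 1 flanking gene was called higher (19.4% of all gene models), also without its replicate 3, PYCCODRAFT_1391815, which lies 82 bases from PYCCODRAFT_1468611. It rose by 1.53 ± 0.22 log2 against maltose (adjusted p = 1.48e-05) and by 3.17 ± 0.21 on Avicel (adjusted p = 2.17e-08), a source on which PYCCODRAFT_1468611 did not rise. Without xylan-galactomannan replicate 3, the flanking gene PYCCODRAFT_779035 was called lower on that medium than on maltose, at -1.51 log2 (adjusted p = 0.0424). With that library it was at -0.68 and not called. Around the adjacent pair, PYCCODRAFT_1403742 had a log2 fold change of 0.08 ± 0.58 on aspen against maltose, and PYCCODRAFT_1382876, at 307 bases from PYCCODRAFT_1464049, one of 0.46 ± 0.17, and neither was called. Gene PYCCODRAFT_1436321 overlaps the gene model PYCCODRAFT_507860 by 454 bases, and whether counting used the strand is not given in the sources used here. That gene model had mean log2 levels of only 5.35 to 6.38 on the 6 sources, where PYCCODRAFT_1436321 ranged from 6.43 to 13.99.

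**Figure D4:**
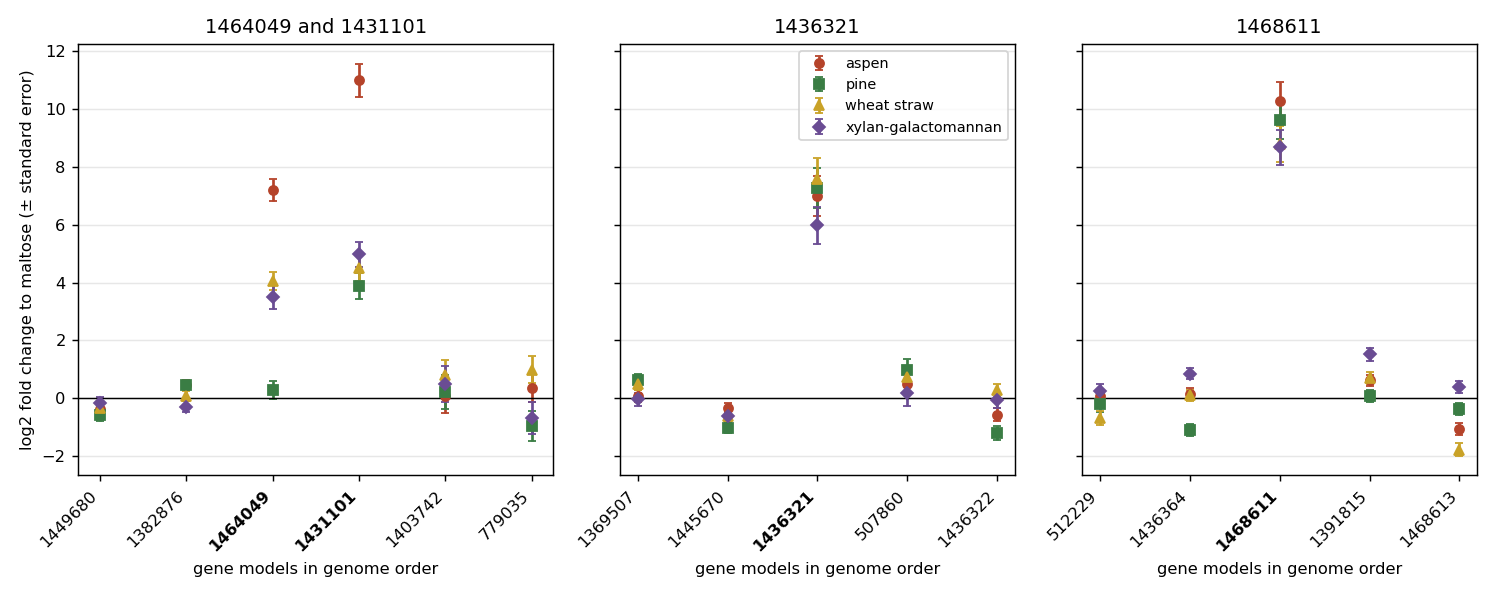
Log2 fold changes to maltose on aspen, pine, wheat straw and xylan-galactomannan, with standard errors, for the AA2 genes (bold) and up to 2 gene models on either side, in genome order without scale. The AA2 genes reach up to 10.27 for PYCCODRAFT_1468611 and still higher for PYCCODRAFT_1431101 on aspen. Of the 12 flanking gene models 0 were called higher on aspen, pine or wheat straw, where 19.5, 22.1 and 17.3% of all gene models were. On xylan-galactomannan 1 of the 12 was called higher (19.4%).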

How the data were processed

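RNA from 18 cultures of CIRM-BRFM 310 (6 carbon sources, 3 libraries each) was analysed. The authors filtered the paired-end reads, used TopHat 2 for alignment and HTSeq for counting, and deposited raw counts per gene model for each library. The deposited RPKM equal the counts scaled to mappable length and library total. Of 12690 gene models, 773 had no count. Totals ranged from 26370228 to 42190522, and replicates differed by more than sampling noise (chi-square per degree of freedom 23.5 to 364).

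Counts were tested with edgeR 4.0.16 (R 4.3.3; TMM, filterByExpr, quasi-likelihood, Benjamini-Hochberg). One fit held the 15 libraries of maltose, Avicel, aspen, pine and wheat straw (11112 gene models), and comparisons with xylan-galactomannan came from a fit of all 18 (11168). Standard errors were derived as absolute log2 fold change over the root of F. On simulated counts, 92 to 96.5% of 200 gene models changed by 2 log2 were recovered over the 15 comparisons, with 3 to 10 false calls in each. The simulation gave every source the maltose levels apart from these gene models. It therefore did not test normalization where many gene models change, and the main fits called 10.6 to 42.9% of them. Size factors followed DESeq. Alternatives were RLE factors, DESeq2 1.42.0, no filter, other sets of libraries, Bonferroni, a replicate block, leaving out each library, TMM CPM, recomputed RPKM and distances over 5 sources.

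Named genes are the AA2 genes, the oxidoreductases and xylan-active genes the study set beside them, the 5 nearest profiles of each and, by position, flanking genes. Members, lists and tests were chosen with earlier results of these data known. Protein sequences and product names were not used here, so similar proteins were not searched.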

Additional observations from a re-analysis of the deposited data

How the results depend on the processing

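For the 4 AA2 genes, 400 fold changes were taken under another method, adjustment or set of libraries. Of these, 388 kept their direction and their side of the limits, 11 lost a call and 1 gained one. The Bonferroni part repeats the main fold changes, so only its calls could change. Of 960 refits without one library, 932 kept direction and side, 17 lost a call, 6 gained one and 5 changed sign. Many of the 960 left out a library of a source outside the comparison, and most changes came from leaving out a library of a compared source. The count of unchanged refits is therefore no measure of stability against the loss of a compared library. With Bonferroni adjustment, which accounts for 7 of the 11 losses, 0 of the 4 genes were called in Avicel against maltose and in xylan-galactomannan against wheat straw, and 1 in xylan-galactomannan against pine. Of all gene models, 10.5%, 4.14% and 12.4% were called in these comparisons with that adjustment. DESeq2 and a fit of the compared groups alone no longer called PYCCODRAFT_1436321 in xylan-galactomannan against pine (-1.31 and -1.28, adjusted p = 0.0514 and 0.0784), and the latter fit called it against aspen (-1.01, adjusted p = 0.0346). The number of genes called without one library ran from 0 to 1 in Avicel against maltose, from 1 to 2 in pine against wheat straw, from 1 to 3 in xylan-galactomannan against pine and from 0 to 2 in xylan-galactomannan against wheat straw. The fold changes that changed sign were uncalled throughout: PYCCODRAFT_1431101 in Avicel against maltose ranged from -0.21 to 0.24, PYCCODRAFT_1464049 in pine against maltose from -0.10 to 0.77, and PYCCODRAFT_1436321 from -0.75 to 0.33 in aspen against pine and from -0.97 to 0.11 in pine against wheat straw. Apart from the Bonferroni limit, which is stricter by construction, the cause was not tested.

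The deviations of same-numbered libraries correlated between -0.14 and 0.30, and in 0 of 15 pairs of sources did all exceed the limit of 0.1. Samples were therefore not treated as paired in the main fits. With 3 correlations per pair of sources this rule cannot exclude a weak or partial pairing, and differently numbered libraries were not correlated for reference. With a replicate block 0 genes were called in Avicel against maltose (PYCCODRAFT_1464049 at -0.98), PYCCODRAFT_1436321 was no longer called in xylan-galactomannan against pine (-1.18, adjusted p = 0.0702), and no other call of the 4 genes changed. Over the comparisons 10.6 to 42.5% of all gene models were called with the block, where the main fits called 10.6 to 42.9%. With 3 libraries per source, differences near the limits of 1 and -1 were not resolved for these genes.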
